A study of Mus musculus with 19 samples.

Results

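The genes described here are the 10 that encode the calcium release channels, calcium pumps and calcium sensors of the endoplasmic reticulum (ER) in the mouse striatum: the IP3 receptors Itpr1, Itpr2 and Itpr3, the ryanodine receptors Ryr1, Ryr2 and Ryr3, the SERCA pumps Atp2a2 and Atp2a3, and the luminal sensors Stim1 and Stim2. They were chosen by name for what their proteins do, with earlier results of these data known. All 10 were found among the 54232 gene identifiers of the count table and passed the filter that left 18521 genes for testing.

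The ER is the main calcium store of a neuron. IP3 receptors open when a receptor at the cell surface, such as a group I metabotropic glutamate receptor, has led phospholipase C to make IP3, and ryanodine receptors open when cytosolic calcium itself reaches them. SERCA pumps bring calcium back into the store at the cost of ATP, and STIM proteins sense how full the store is and, when it is depleted, couple the ER to Orai channels in the plasma membrane. IP3 receptor type 1 is abundant in striatal projection neurons, and full-length huntingtin with an expanded glutamine stretch has been described as a binding partner of that receptor, so calcium release is an often studied part of Huntington's disease.

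RNA was sequenced from the striatum of 6-month-old mice on the C57/BL/6 background, in 4 groups: wild type (WT, n = 7), KI-96 (n = 4), KI-571 (n = 4) and KI-FL (n = 4). The study's methods state fewer mice per genotype than the 7 WT libraries labelled here, and the labels do not say why. KI-FL mice are HD140Q knock-in mice, heterozygous for an endogenous Htt allele with an expanded CAG repeat, and express full-length mutant huntingtin (HTT). KI-96 and KI-571 mice came from the same HD140Q line after CRISPR/Cas9 cut the mutant allele short, so that they express N-terminal mutant HTT fragments under the endogenous Htt promoter, the shorter one in KI-96. In the study's western blots all KI genotypes, KI-FL included, held a stable N-terminal fragment of similar size, the only fragment seen in KI-571. The comparisons therefore ask whether a truncated and a full-length mutant allele are accompanied by the same transcript levels.

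The libraries held 12669809 to 26388542 counts on genes. Htt itself was at 178 ± 9.80 CPM in WT (counts scaled to each library's total after TMM normalization, mean ± SD, n = 7), 186 ± 40.1 in KI-96, 124 ± 15.3 in KI-571 and 158 ± 17.5 in KI-FL (n = 4 each). All 10 markers of striatal projection neurons were detected in each group, with summed levels of 5717 to 9134 CPM in WT and 5373 to 8546 CPM over the 12 KI mice. Several libraries stood apart. KI-FL replicate 4 had counts on 16384 genes against at least 23177 in every other library. WT replicate 3 had a summed level of 9 cortical neuron markers of 1197 CPM, where the WT median was 178. KI-571 replicates 2 and 4 and KI-FL replicate 1 had 3026 CPM or more of 6 choroid plexus markers, where the WT mice did not exceed 409.5. KI-96 replicate 3 had the highest share of reads outside annotated features, 24.2%. Xist, which is expressed from the inactive X chromosome of females, was above 100 CPM in all 4 KI-96 mice, in 1 of 7 WT mice, in 0 of 4 KI-571 mice and in 1 of 4 KI-FL mice, so sex was not balanced over the groups. In bulk tissue, fewer cells of a type and less RNA in each cell cannot be told apart.

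Per kilobase of exon, Atp2a2 was the most abundant of the 10 transcripts and Itpr3 the least. Over the 19 mice, Atp2a2 stood at 148 ± 15.9 CPM per kilobase (mean ± SD) of merged exon and Itpr1 at 61.1 ± 12.6, and each exceeded the next gene in the order in all 19 mice. Ryr3 at 13.0 ± 2.25, Stim2 at 12.8 ± 1.29 and Stim1 at 12.5 ± 1.57 CPM per kilobase did not differ beyond their spread. Ryr1 at 4.86 ± 1.44 and Ryr2 at 4.53 ± 0.92 were likewise not separated, Ryr1 being the higher in 11 of 19 mice. Itpr2 at 2.05 ± 0.41, Atp2a3 at 1.42 ± 0.29 and Itpr3 at 0.63 ± 0.11 CPM per kilobase closed the order. Itpr2 exceeded Atp2a3 in 16 of 19 mice, and Atp2a3 exceeded Itpr3 in all 19.

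**Figure D1:**
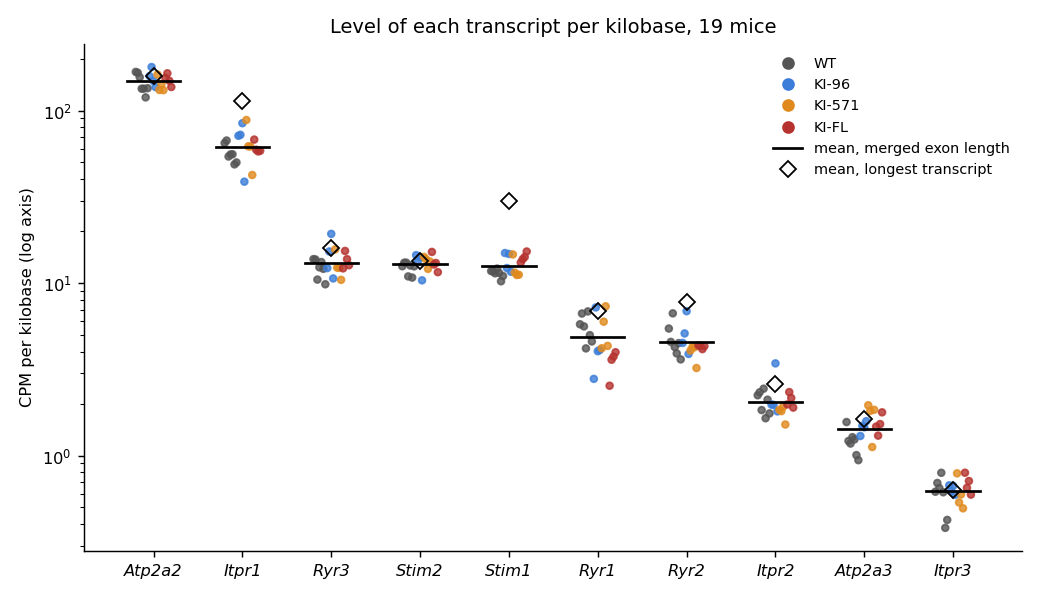
Level of each of the 10 transcripts in each of 19 mice, in CPM per kilobase of merged exon on a log axis, coloured by genotype, with a bar at the mean and a diamond at the mean when the length of the longest transcript is used. Atp2a2 and Itpr1 lie above the other 8 genes in every mouse, and the diamonds of Stim1 (29.8) and Itpr1 (113) lie well above their bars (12.5 and 61.1).

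The length chosen moved part of this order. With the longest annotated transcript (9870 bases for Itpr1 and 4362 for Stim1) instead of merged exons (18319 and 10371 bases), Stim1 reached 29.8 CPM per kilobase, above Ryr3 at 16.0 and Stim2 at 13.4. Ryr2 at 7.76 then stood above Ryr1 at 6.91. The lead of Atp2a2 and Itpr1 and the last places of Itpr2, Atp2a3 and Itpr3 held with either length.

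None of the 10 genes passed an adjusted p of 0.05 against WT, and so none was called, in the quasi-likelihood test of edgeR, with the Benjamini-Hochberg procedure run over all 18521 genes. In KI-96 mice 0 of 10 were called, where 0.027% of all tested genes were. In KI-571 mice 0 of 10 were called against 0.0324% of all genes, and in KI-FL mice 0 of 10 against 0.194%. With all 12 KI mice pooled, 0 of 10 were called against 0.054%, and 2 were higher and 1 lower at an unadjusted p under 0.05, where 6.03% and 6.84% of all genes were. At an unadjusted p under 0.05, 1 gene was higher in KI-96 (Stim1), 1 higher in KI-571 (Atp2a3), and 1 higher and 1 lower in KI-FL (Stim1 and Ryr1), where 4.36%, 3.89%, 7.89% and 8.84% of all genes were past that value in the same directions. DESeq2, run as another tool, called 0 of 10 in KI-96 and KI-571, where it called 0.151% and 0.621% of all tested genes, and 1 of 10, Ryr1, in KI-FL, where it called 2.75%. The median log2 fold change of the 10 genes was 0.14 in KI-96, 0.04 in KI-571 and 0.11 in KI-FL, beside medians of -0.02, -0.01 and -0.03 over all tested genes.

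**Figure D2:**
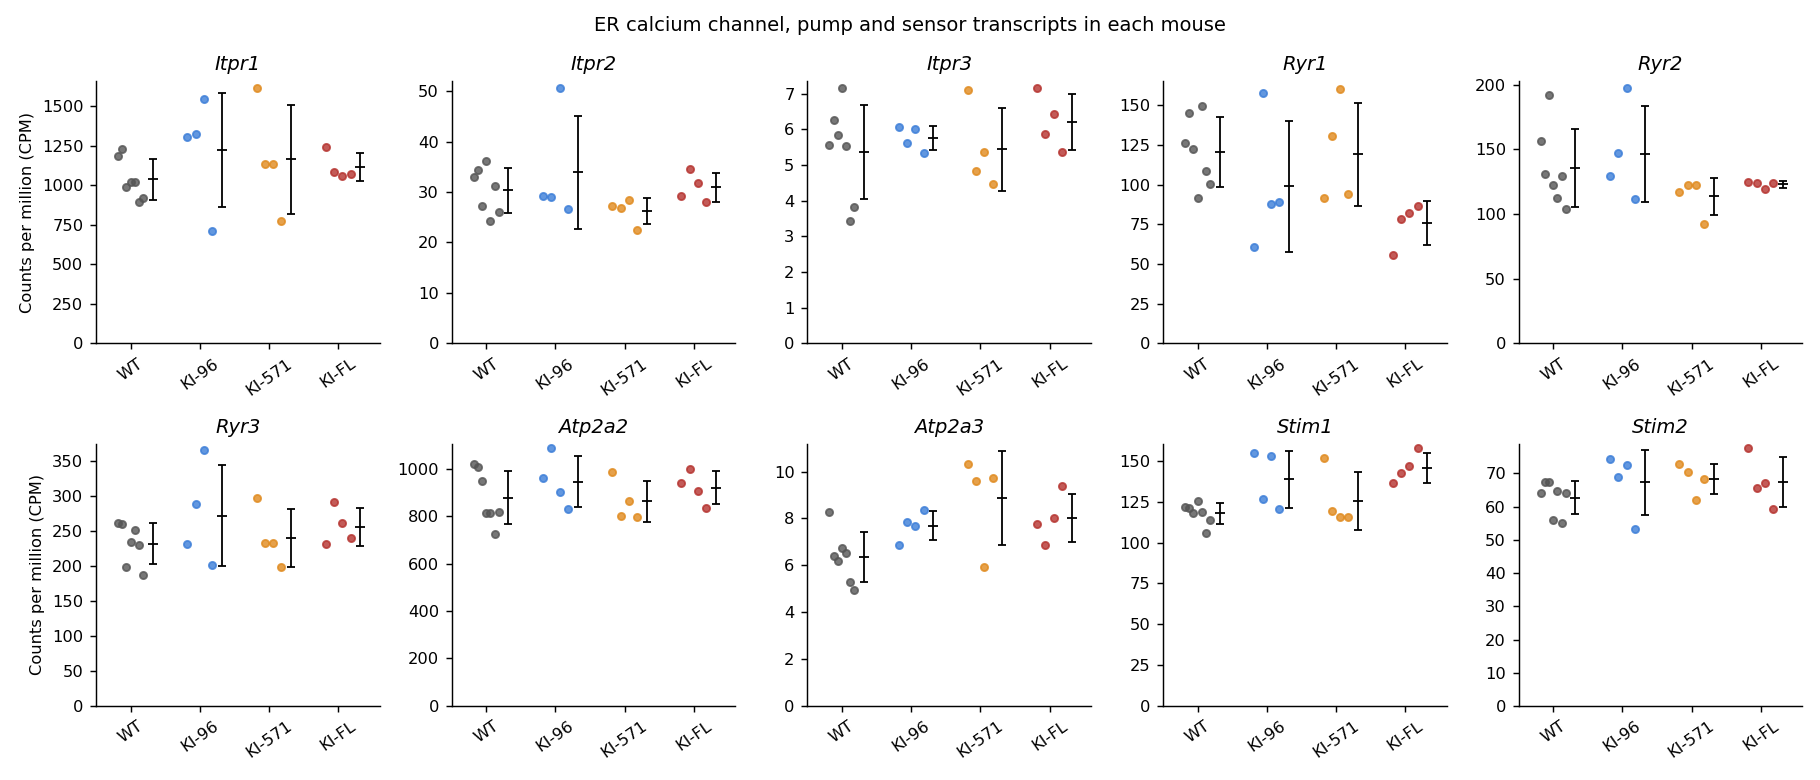
CPM of each gene in each mouse by genotype, with the mean and SD of each group at the right of its points (WT n = 7, others n = 4). The 4 KI-FL mice lie below every WT mouse for Ryr1 (55.4 to 86.7 against 91.2 to 149 CPM) and above every WT mouse for Stim1 (136 to 158 against 106 to 126 CPM), and the other panels overlap.

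Itpr1, on chromosome 6 from 108213096 to 108551109 on the plus strand of GRCm38, encodes the neuronal IP3 receptor and supplied nearly all IP3 receptor transcript in these samples. It made up 95.5% ± 0.54 of the summed CPM per kilobase of the 3 IP3 receptor genes in WT (SD, n = 7), 95.6% ± 1.10 in KI-96, 96.3% ± 0.68 in KI-571 and 95.6% ± 0.44 in KI-FL (n = 4 each). Its level in the 7 WT mice ran from 892 through a median of 1019 to 1227 CPM. The KI-96 mice had 1307, 1324, 1546 and 708 CPM, the KI-571 mice 1614, 1136, 1134 and 775, and the KI-FL mice 1243, 1085, 1060.5 and 1070.1. In KI-96 3 libraries and in KI-571 1 library thus exceeded all WT mice, while 1 library of each of these genotypes lay below all of them, and the KI-FL mice lay close together with replicate 1 apart at the top. The log2 fold change against WT was 0.24 (SE 0.18, adjusted p = 0.79, edgeR) in KI-96, 0.17 (SE 0.18, adjusted p = 0.938) in KI-571 and 0.11 (SE 0.18, adjusted p = 0.785) in KI-FL. The 95% interval for KI-FL reached from -0.26 to 0.47, so a loss of more than 0.26 or a gain of more than 0.47 on the log2 scale fell outside it. Single mice moved the first 2 values. Leaving out 1 mouse at a time gave 0.10 to 0.43 in KI-96, the highest without KI-96 replicate 4 (adjusted p = 0.258). In KI-571 it gave -0.03 to 0.32, the lowest without KI-571 replicate 1. The highest KI-96 value, 1546 CPM, came from replicate 3, the library rich in reads outside annotated features.

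Itpr2 and Itpr3, the other two IP3 receptors, are best known from glia and other non-excitable cells and from secretory epithelia, respectively. Itpr2 (chromosome 6, 146108299 to 146502223, minus strand) ran from 24.3 through 31.2 to 36.1 CPM in WT, and stood at 29.2, 29.1, 50.6 and 26.7 CPM in KI-96, 27.2, 26.8, 28.5 and 22.4 in KI-571, and 29.3, 34.5, 31.9 and 28.1 in KI-FL. The 50.6 CPM of KI-96 replicate 3, the library rich in reads outside annotated features, lay apart from all other mice, and its log2 fold change in KI-96 of 0.16 became -0.10 without that library. The 4 KI-571 mice all lay below the WT median, at a log2 fold change of -0.21 (SE 0.15, adjusted p = 0.85). Itpr3 (chromosome 17, 27057304 to 27122223, plus strand) rested on 74 to 148 counts per library and ran from 3.43 to 7.16 CPM in WT and from 4.46 to 7.17 CPM over the 12 KI mice. Its log2 fold changes of 0.10, 0.02 and 0.21 for KI-96, KI-571 and KI-FL had SEs of 0.20, and each of the 3 turned negative when WT replicates 1 to 4 alone stood for WT (-0.11, -0.19 and -0.01).

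Ryr1 showed the largest difference from WT of any of the 10 genes. It encodes the ryanodine receptor first known from skeletal muscle and lies on chromosome 7 from 29003344 to 29125179 on the minus strand. Ryr1 stood at 126, 145, 122, 91.2, 149, 109 and 100.1 CPM in the WT mice and at 55.4, 78.5, 81.8 and 86.7 CPM in the KI-FL mice. Every KI-FL mouse was therefore below every WT mouse, a separation in this direction that 2.38% of all tested genes showed. The KI-FL mean was 0.63 times that of WT (95% interval 0.46 to 0.85), a log2 fold change of -0.67 with an SE of 0.21 and an adjusted p of 0.133 in edgeR (unadjusted p = 0.00419). In 2 of 24 alternatives the adjusted p went under the threshold, to 0.0388 with DESeq2 and to 0.0405 when the fit held WT and KI-FL mice alone (1.89% of all genes were called in that fit), and it reached 0.487 when WT replicates 1 to 4 alone stood for WT. The fold change itself stayed between -0.75 and -0.56 over all 24.

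In the KI-96 and KI-571 mice Ryr1 was more scattered. The KI-96 mice had 60.8, 158, 87.9 and 89.3 CPM, so that 3 of 4 lay below every WT mouse and replicate 2 lay above all of them. The log2 fold change in KI-96 was -0.28 (SE 0.21, adjusted p = 0.783). Leaving out 1 mouse at a time gave values from -0.60, without KI-96 replicate 2 (adjusted p = 0.68), to -0.11. The KI-571 mice had 91.4, 130.3, 160.0 and 94.4 CPM, which spans the WT range, and a log2 fold change of -0.02 (SE 0.20, 95% interval -0.44 to 0.41). All 4 KI-571 mice were above all 4 KI-FL mice, as 2.28% of all tested genes were in that direction, and the difference of KI-571 from KI-FL was 0.65 on the log2 scale (SE 0.23, unadjusted p = 0.0101, adjusted p = 0.427). It was not past the threshold, and KI-96 and KI-FL differed by 0.39 (SE 0.23, adjusted p = 0.64). A difference between genotypes with a truncated and with a full-length mutant allele was thus not shown for Ryr1.

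Summed levels of astrocyte and oligodendrocyte markers in KI-FL lay at the low end of the WT range or below it. That of 5 microglia markers did not, at 275 to 392 CPM in KI-FL (median 293) and 241 to 337 CPM in WT (median 286). The summed level of 7 astrocyte markers was 3018 to 3442 CPM in KI-FL (median 3139) and 3261 to 4027 CPM in WT (median 3496), whereas the medians were 3933 CPM in KI-96 and 3766 CPM in KI-571. That of 7 oligodendrocyte markers was 9818 to 11386 CPM in KI-FL (median 10598) and 10449 to 14842 CPM in WT (median 12822), with medians of 11866 CPM in KI-96 and 11975 CPM in KI-571. The ranges overlapped. No marker of these lists was at 0, and their part in the Ryr1 difference was not tested. KI-FL replicate 1, with the lowest Ryr1, was also the KI-FL library high in choroid plexus markers. Without it and both such KI-571 libraries the log2 fold change of Ryr1 in KI-FL was -0.56 (adjusted p = 0.23), and without WT replicate 3 and KI-FL replicate 4 it was -0.75 (adjusted p = 0.197). Of the merged Ryr1 exon bases, 3.96% lie under an antisense gene, Gm26604, and the strand setting of the counting is not given in the sources used here.

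Ryr2 and Ryr3 differed from WT by smaller amounts than Ryr1 in KI-FL, and the difference between the genes was not tested. Ryr2, the cardiac ryanodine receptor that is also widely expressed in brain (chromosome 13, 11553102 to 12106945, minus strand), ran from 104 through 129 to 192 CPM in WT and stood at 129, 147, 198 and 112 CPM in KI-96, 117, 123, 122 and 92.6 in KI-571, and 125, 124, 119 and 124 in KI-FL. The KI-FL mice differed by few CPM from each other and all lay under the WT median, as did the KI-571 mice. Its log2 fold changes were 0.11 in KI-96, -0.25 in KI-571 (SE 0.15, adjusted p = 0.771) and -0.14 in KI-FL (SE 0.15, adjusted p = 0.667). The highest WT value, 192 CPM, came from WT replicate 3, the library with high cortical neuron markers. Without it and KI-FL replicate 4 the log2 fold changes of Ryr2 were 0.22 in KI-96, -0.15 in KI-571 and -0.04 in KI-FL.

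Ryr3 (chromosome 2, 112631355 to 113217096, minus strand), the third ryanodine receptor and known from brain regions including hippocampus and striatum, was the most abundant of the 3 per kilobase. It ran from 187 through 234 to 261 CPM in WT and stood at 232, 289, 366 and 202 CPM in KI-96, 297, 233, 232 and 198 in KI-571, and 231, 291, 261 and 241 in KI-FL. All groups overlapped, and its log2 fold changes of 0.23, 0.05 and 0.14 for KI-96, KI-571 and KI-FL had SEs of 0.14 and adjusted p-values of 0.622 to 0.984. Of its merged exon bases, 4.83% lie under Aven, a protein-coding gene on the other strand.

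As a share of the summed CPM per kilobase of the 3 ryanodine receptor genes, Ryr1 made up 24.5% ± 2.74 in WT (SD, n = 7) and 16.3% ± 2.42 in KI-FL (n = 4). The KI-FL mice ran from 13.3% to 18.9% and the WT mice from 20.1% to 28.5%. In KI-96 the share was 18.95% ± 6.19 and in KI-571 24.7% ± 5.55, both overlapping WT. Ryr3 took 63.5% ± 2.26 in KI-FL against 54.5% ± 4.06 in WT, with the lowest KI-FL mouse at 60.5% and the highest WT mouse at 59.4%. These shares contain the same Ryr1 counts as above and are a description.

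**Figure D3:**
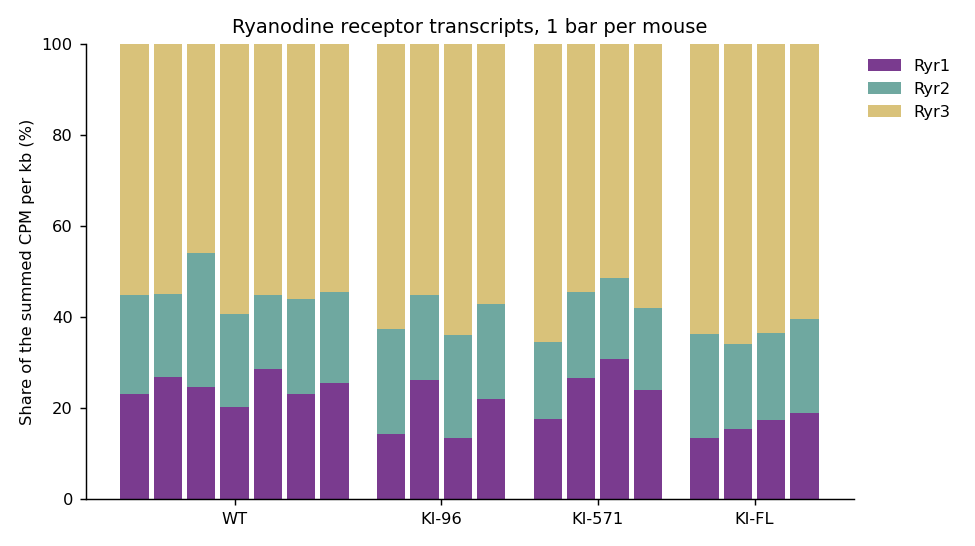
Share of Ryr1, Ryr2 and Ryr3 in their summed CPM per kilobase of merged exon, in percent, with 1 bar per mouse grouped by genotype. The lowest segment, Ryr1, ends at 13.3% to 18.9% in the KI-FL mice and at 20.1% to 28.5% in the WT mice.

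The pump Atp2a2 (chromosome 5, 122453513 to 122502225, minus strand) encodes SERCA2, the housekeeping calcium pump of the ER, and far outweighed Atp2a3. Its share of the summed CPM per kilobase of both genes was 99.2% ± 0.11 in WT and no lower than 98.6% in any mouse. Atp2a2 ran from 724 through 819 to 1018 CPM in WT and stood at 962, 1086, 899.7 and 831 CPM in KI-96, 983, 800.0, 864 and 798 in KI-571, and 939, 999, 904 and 832 in KI-FL. Each KI group lay within or close to the WT range. The log2 fold changes were 0.11, -0.03 and 0.07 for KI-96, KI-571 and KI-FL with SEs of 0.11, and the 3 95% intervals together reached from -0.26 to 0.33. Atp2a2 varied little between mice of 1 genotype, with an SD of 0.16 on the log2 scale, which placed it at the 14.6th percentile of all tested genes.

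Atp2a3, the SERCA3 pump known from platelets, lymphocytes and some epithelia (chromosome 11, 72961169 to 72993044, plus strand), was low, at 87 to 215 counts per library. It stood at 8.26, 6.41, 6.20, 6.75, 6.55, 5.31 and 4.96 CPM in WT, at 6.85, 7.85, 7.70 and 8.36 in KI-96, at 10.3, 9.58, 5.92 and 9.72 in KI-571, and at 7.77, 6.89, 8.04 and 9.40 in KI-FL. Of the 12 KI mice, 11 were above the WT median, and the exception was KI-571 replicate 3. The log2 fold change was 0.49 in KI-571 (SE 0.17, unadjusted p = 0.00855, adjusted p = 0.373), 0.34 in KI-FL (SE 0.17, adjusted p = 0.316) and 0.28 in KI-96 (SE 0.17, adjusted p = 0.739). With all KI mice pooled it was 0.37 (SE 0.13, unadjusted p = 0.0102, adjusted p = 0.242). The difference depended on which WT mice were used: against WT replicates 1 to 4 alone it was 0.37 in KI-571 and 0.24 for the pooled KI mice, and against WT replicates 5 to 7 alone it was 0.66 and 0.55. KI-571 replicates 2 and 4, with 9.58 and 9.72 CPM, were the libraries high in choroid plexus markers, and replicate 1, with 10.3 CPM, was not. Without both and KI-FL replicate 1 the log2 fold change in KI-571 was 0.36 (adjusted p = 0.778), and the part of these markers in it was not tested.

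The sensor Stim1 (chromosome 7, 102267806 to 102437319, plus strand) was the steadiest of the 10 genes and the one that lay above the WT mice in every KI-FL mouse. Its within-genotype SD of 0.13 on the log2 scale was at the 7.64th percentile of all tested genes. Stim1 stood at 122, 121, 118, 126, 119, 106 and 114 CPM in WT and at 136, 143, 147 and 158 CPM in KI-FL. Every KI-FL mouse was above every WT mouse, a separation that 2.9% of all tested genes showed in this direction. The KI-FL mean was 1.24 times that of WT (95% interval 1.09 to 1.41), a log2 fold change of 0.31 with an SE of 0.09 and an adjusted p of 0.118 in edgeR (unadjusted p = 0.00277). Over 24 alternatives the fold change was between 0.25 and 0.37, and the adjusted p ranged from 0.0394, when WT and KI-FL mice alone were in the fit, to 0.578. DESeq2 gave an adjusted p of 0.0647. The highest KI-FL value came from replicate 4, the library with counts on few genes, and without it the log2 fold change was 0.27 (adjusted p = 0.269).

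Stim1 in KI-96 mice stood at 155, 127, 153 and 121 CPM, with 3 of 4 mice above all WT mice and the fourth above the WT median. The log2 fold change was 0.23 (SE 0.09, unadjusted p = 0.0177, adjusted p = 0.629). In KI-571 mice it stood at 152, 119, 115 and 116 CPM, where 3 mice lay within the WT range and replicate 1 lay far above it. The log2 fold change in KI-571 was 0.09 (SE 0.09, adjusted p = 0.933) and -0.02 without that mouse. KI-571 differed from KI-FL by -0.22 (SE 0.10, unadjusted p = 0.0486, adjusted p = 0.556) and KI-96 from KI-FL by -0.07 (SE 0.10, adjusted p = 0.867), neither past the threshold.

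Stim2, the sensor that responds to smaller losses of stored calcium (chromosome 5, 53998499 to 54121057, plus strand), ran from 55.2 through 64.2 to 67.3 CPM in WT. It stood at 74.5, 69.1, 72.6 and 53.2 CPM in KI-96, 72.7, 70.5, 62.0 and 68.4 in KI-571, and 77.7, 65.7, 67.1 and 59.3 in KI-FL. Of the 4 mice in each KI group 3 lay above the WT median, at log2 fold changes of 0.10, 0.12 and 0.11 with SEs of 0.10 and adjusted p-values of 0.859, 0.876 and 0.602. Stim1 and Stim2 took near equal shares of their summed CPM per kilobase of merged exon, Stim1 having 48.2% ± 2.10 in WT and 51.8% ± 4.25 in KI-FL. This held for merged exons only: with the longest transcript Stim1 was at 29.8 and Stim2 at 13.4 CPM per kilobase over all mice.

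**Figure D4:**
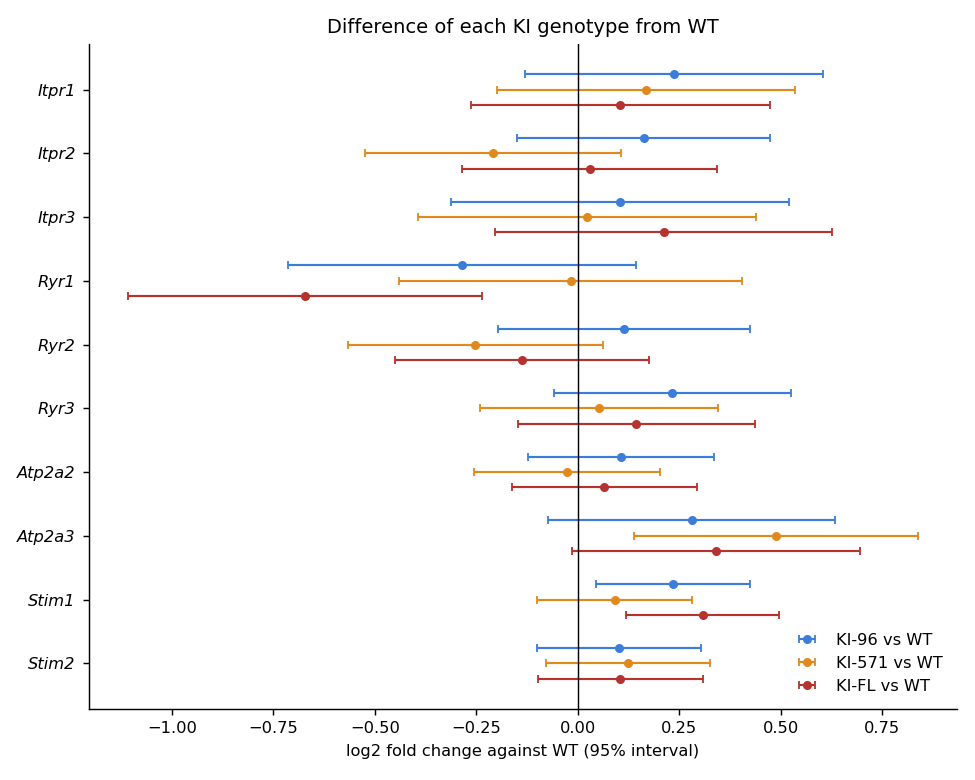
log2 fold change of each gene against WT with its 95% interval from edgeR, for KI-96, KI-571 and KI-FL. The unadjusted intervals of Ryr1 in KI-FL (-1.11 to -0.24), of Stim1 in KI-FL (0.12 to 0.50) and KI-96 (0.04 to 0.42) and of Atp2a3 in KI-571 (0.14 to 0.84) do not reach 0, and no gene passed an adjusted p of 0.05.

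The KI genotypes were also compared with each other. Between KI-96 and KI-FL 0 of 10 genes were called, as were 0% of all tested genes, between KI-571 and KI-FL 0 of 10 against 0.0864%, and between KI-96 and KI-571 0 of 10 against 0.0054%, in edgeR. DESeq2 called 0 of 10 in each, beside 0.205%, 0.475% and 0.189% of all tested genes. At an unadjusted p under 0.05 there were 0 genes between KI-96 and KI-FL, 2 between KI-571 and KI-FL (Ryr1 and Stim1, given above) and 2 between KI-96 and KI-571, beside 8.9%, 8.9% and 5.51% of all tested genes. Those between KI-96 and KI-571 were Itpr2, with a log2 difference of 0.37 (SE 0.17, adjusted p = 0.892), and Ryr2, with 0.37 (SE 0.17, adjusted p = 0.897). KI-96 replicate 3 was the highest of all mice for both. The 95% intervals of KI-96 minus KI-FL over the 10 genes reached from -0.58 to 0.87.

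The choice of WT mice touched several of the 10 genes. The lowest WT values of Itpr1, Itpr3, Ryr2, Ryr3, Atp2a2, Atp2a3, Stim1 and Stim2 were all in replicates 6 or 7. That of Itpr2 was in replicate 5 and that of Ryr1 in replicate 4. With WT replicates 1 to 4 alone, the median log2 fold change of the 10 genes was 0.07 in KI-96, -0.01 in KI-571 and 0.00 in KI-FL. With WT replicates 5 to 7 alone, whose libraries were deeper, it was 0.31, 0.14 and 0.21. Sacrifice batches, which the study's methods mention, are not in the labels, so they could not be entered in the fit.

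Across the 19 mice, 37 of the 45 pairs of these genes had a Pearson correlation of log2 CPM above 0, with a median of 0.36. These values are descriptions over mice that share library depth and preparation. Values of this size were common: among all tested genes, r with Itpr1 ranked 716 for Stim2 (0.67) and 1816 for Ryr2 (0.49). The highest of the 45 was that of Itpr1 with Ryr3 (Pearson r = 0.77, Spearman rho = 0.70, and 0.74 without the 2 mice farthest from the median of Itpr1). All 9 correlations of Ryr1 with the other genes were below 0.15. After each genotype's mean was subtracted, they reached 0.22 with Ryr2, 0.24 with Atp2a2 and 0.28 with Ryr3. The lowest of all 45 was that of Ryr1 with Stim1 (r = -0.61, rho = -0.63), and it was -0.32 after the same subtraction.

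The 4 genes whose log2 CPM was most like that of Itpr1 over the 19 mice were Man2a2, a Golgi mannosidase (Pearson r = 0.94), Jcad, a cell junction protein (0.93), Tacc1, a centrosome and microtubule protein (0.92), and Smarcc1, a chromatin remodelling subunit (0.92). Among the other 9 genes described here, Ryr3 came closest, at rank 272 of the tested genes, and Ryr1 was farthest, with r = -0.04. The 200 genes most like Itpr1 had a median longest transcript of 6906 bases, against 3076 bases over all tested genes.

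The genes that work with these channels, pumps and sensors were taken from 9 lists holding 78 genes, of which 77 were in the table and 76 were tested. None was called in KI-96, KI-571, KI-FL or the pooled KI mice by edgeR. At an unadjusted p under 0.05, 3 were higher and 0 lower in KI-96, 1 higher and 3 lower in KI-571, and 12 higher and 4 lower in KI-FL. Named after their values were seen, those in KI-96 were Mcu, the pore of the mitochondrial uniporter (log2 fold change 0.35), the IP3 kinase Itpkb (0.32) and the exchanger Slc8a3 (0.25). Those in KI-571 were Rcn1 (0.55) and, lower, Hap1, a huntingtin-associated protein that binds IP3 receptors (-0.49), the channel Trpc1 (-0.22) and the exchanger Slc8a1 (-0.52). In the pooled KI mice 8 were higher and 3 lower, 14.5% of the 76 beside 12.9% of all tested genes. DESeq2 called 0 of the 76 in KI-96, 1 in KI-571, 3 in KI-FL and 1 in the pooled KI mice, all higher: Rcn1 in each that had a call, with Orai1 and Mcub, an inhibitory subunit of the uniporter, in KI-FL. It called 0.151%, 0.621%, 2.75% and 1.54% of all tested genes in the same 4 comparisons. The KI-FL genes past an unadjusted p of 0.05 in edgeR make up 21.1% of the 76, beside 16.7% of all tested genes, and the shares in KI-96 and KI-571 were 3.95% and 5.26%, beside 7.45% and 7.72%.

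**Figure D5:**
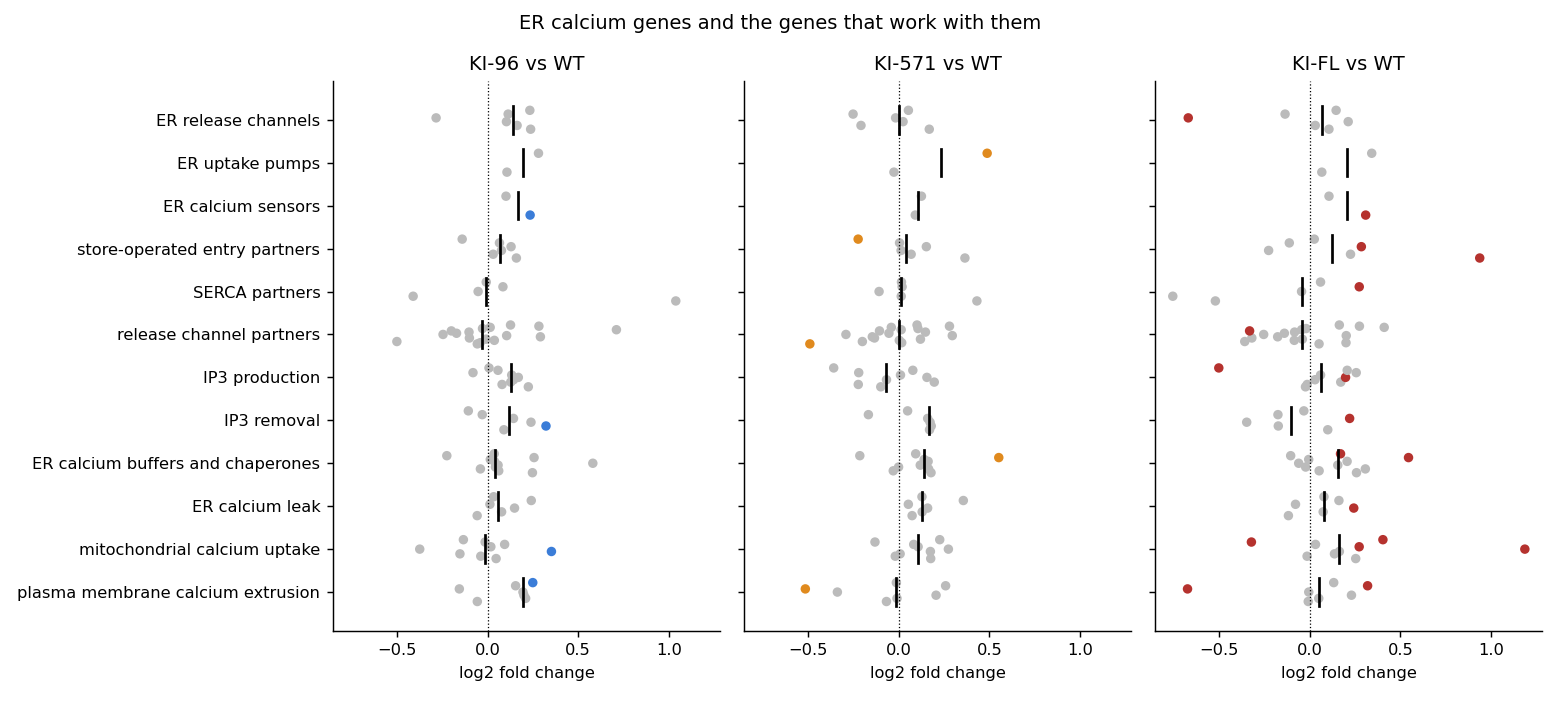
log2 fold change against WT of every tested gene in the release channel, pump and sensor groups and in 9 lists of genes that work with them, for KI-96, KI-571 and KI-FL. Each point is a gene, coloured where its unadjusted p was under 0.05, and bars mark list medians, which lie between -0.10 and 0.21 in KI-FL; no coloured gene passed an adjusted p of 0.05.

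Of the 6 partners of store-operated entry, 2 were past an unadjusted p of 0.05 in KI-FL, both higher, where 7.89% of all tested genes were higher at that value. Saraf, which slows store-operated entry by acting on STIM proteins, was at 209.8 ± 10.4 CPM in WT and 255 ± 30.3 in KI-FL, a log2 fold change of 0.28 (SE 0.10, adjusted p = 0.165). Orai2, a plasma membrane calcium channel opened by STIM proteins, had 0.22 (SE 0.11, adjusted p = 0.299). Orai1, the best known of these channels and the other of the 2, is named after its values were seen. It was low, at 4.17 to 6.11 CPM in WT, and stood at 8.76, 5.23, 6.52 and 18.99 CPM in KI-FL, with a log2 fold change of 0.94 (SE 0.25, adjusted p = 0.0935). The 18.99 CPM came from KI-FL replicate 4, and without that library the difference was 0.41 (adjusted p = 0.338).

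The 5 tested SERCA partners and the 17 partners of release channels had list medians of -0.05 each in KI-FL. Among them, Fkbp1a, the FKBP12 subunit that binds ryanodine receptors, had a log2 fold change of 0.20 in KI-FL (SE 0.14, adjusted p = 0.483), and Jph3, a junctophilin that holds the neuronal ER close to the plasma membrane, had 0.28, 0.28 and 0.27 for KI-96, KI-571 and KI-FL (SE 0.14 each, adjusted p = 0.679, 0.667 and 0.325). The Golgi calcium pump Atp2c1 and the ER oxidoreductase Tmx1 had values between -0.11 and 0.06 in the 3 genotypes.

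Among the 9 genes of IP3 production, Grm5, the group I metabotropic glutamate receptor mGluR5, was at 374 ± 46.5 CPM in WT and 370.4 ± 19.2 in KI-FL, a log2 fold change of -0.02 (SE 0.14). Gna11, a Gq-family G protein subunit that activates phospholipase C, had 0.20 in KI-FL (SE 0.08, unadjusted p = 0.0257, adjusted p = 0.235). Among the 6 genes of IP3 removal, the IP3 kinase Itpka had 0.10 (SE 0.13, adjusted p = 0.722) and the IP3 phosphatase Inpp5a 0.22 (SE 0.10, adjusted p = 0.275) in KI-FL. These 2 lists had medians of 0.06 and -0.10 in KI-FL, against -0.03 over all genes.

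The 11 ER calcium buffers and chaperones had a median of 0.15 in KI-FL and 0.14 in KI-571. Calr, the calcium buffer calreticulin, had log2 fold changes of 0.25, 0.18 and 0.26 for KI-96, KI-571 and KI-FL (SE 0.16 or 0.17, adjusted p = 0.765, 0.924 and 0.436), and Canx, the chaperone calnexin, had 0.06, -0.03 and 0.05. Rcn1, a calcium-binding reticulocalbin of the ER lumen, is also named after its values were seen. It stood at 43.2 to 60.1 CPM in WT, 105, 75.8, 76.1 and 64.1 in KI-571, and 86.6, 61.1, 69.0 and 103 in KI-FL, so that all mice of both genotypes were above all WT mice, as were 0.88% of all tested genes in KI-571 and 2.9% in KI-FL. Its log2 fold change was 0.55 in KI-571 (SE 0.13, adjusted p = 0.13) and 0.54 in KI-FL (SE 0.13, adjusted p = 0.0744), and DESeq2 gave adjusted p-values of 0.0251 and 0.0186. Without KI-FL replicate 4 the KI-FL value in edgeR was 0.40 (adjusted p = 0.226). Without KI-571 replicate 1, the library at 105 CPM, the KI-571 value was 0.39 (adjusted p = 0.46). The KI-96 mice had 68.6, 69.3, 64.2 and 59.9 CPM of Rcn1, with a log2 fold change of 0.26 (SE 0.13, adjusted p = 0.697).

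Of the 6 ER leak genes, Tmbim6 and Bcl2l1 had log2 fold changes from 0.03 to 0.13 in the 3 genotypes. Of the 9 genes of mitochondrial calcium uptake, Vdac1, the outer membrane channel, had 0.25 in KI-FL (SE 0.13, adjusted p = 0.316), and Smdt1, the EMRE subunit of the uniporter, had 0.40 (SE 0.19, adjusted p = 0.279). Among the 7 genes of plasma membrane calcium extrusion, the pump Atp2b1 had -0.01 (SE 0.13) and the sodium-calcium exchanger Slc8a2 had 0.32 (SE 0.15, adjusted p = 0.291) in KI-FL. These 3 lists had medians of 0.08, 0.16 and 0.05 in KI-FL.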

How the data were processed

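Striatal RNA-seq of 19 mice was analysed. Per the labels and the study's methods, reads were trimmed, aligned with STAR to GRCm38 and counted per gene with HTSeq, and the authors deposited raw counts. Versions, annotation release and strand setting are not given in the sources used here. In all, 4 columns of the table that match no sample were not used. HTSeq's 5 summary lines (20.8% to 32.8% of reads per library) were left out. Identifiers were matched to GENCODE M21 symbols without version (54079 of 54232).

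The 10 genes, the lists and the tests were chosen with earlier results of these data known. Counts were fitted in edgeR 4.0.16 (R 4.3.3; TMM scaling, filterByExpr with a minimum count of 10 and total of 15, quasi-likelihood F-test, two-sided) with all 19 mice in 1 fit by genotype; p-values were adjusted over 18521 genes, with a threshold of 0.05. CPM use TMM-scaled library sizes; log2 CPM use a prior count of 2. Labels do not say how replicates were taken, so p-values measure the spread between these samples. The study used DESeq2 with sacrifice batch and left out 1 unnamed WT mouse; neither is in the labels, so all were kept. DESeq2 1.42.0, other filters, size factors, 1 surrogate variable (sva 3.50.0), Xist, subsets of mice and the replicate number as a block were alternatives. Code was tested on simulated data. Besides the 10 genes, the text names the 2 genes of each list with the highest mean CPM per kilobase, any called gene, Htt and Xist, and the 5 genes most like Itpr1, of which 1 is not reported here. Itprip had no identifier in the table.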

Additional observations from a re-analysis of the deposited data

Results flagged for a closer look

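Of 40 groups of mice (10 genes in 4 genotypes), 5 held 1 library far from the others of its group by Dixon's ratio on log2 CPM, where chance gives about 5% of groups, that is 2. Itpr1 in KI-FL replicate 1 was at 10.28, with the other KI-FL mice at 10.05 to 10.08. Itpr2 in KI-96 replicate 3 was at 5.67, with the others at 4.74 to 4.87. Ryr2 in KI-571 replicate 4 was at 6.53, with the others at 6.87 to 6.94. Atp2a3 in KI-571 replicate 3 was at 2.59, with the others at 3.28 to 3.38. Stim1 in KI-571 replicate 1 was at 7.25, with the others at 6.85 to 6.90. No difference between KI genotypes in the 10 genes passed an adjusted p of 0.05, and no other data outside the main measurement were used.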

How the results depend on the processing

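The count of 0 called genes in KI-FL against WT became 1 with DESeq2 (Ryr1, log2 fold change -0.685) and 2 when the fit held WT and KI-FL mice alone (Ryr1, -0.673, and Stim1, 0.307). The other 6 counts were 0 under every alternative, and leaving out any mouse left all 7 at 0. Of 838 alternative values of 35 fold changes, 43 had the opposite sign, all for main values no larger than 0.21.

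With WT replicates 1 to 4 alone, the sign turned for Itpr2 (-0.088) and Atp2a2 (-0.052) in KI-FL, Itpr3 for KI-96, KI-571 and KI-FL (-0.108, -0.188 and -0.0087), and Ryr2 (-0.040) and Atp2a2 (-0.0034) in KI-96. With WT replicates 5 to 7 alone, it turned for Ryr2 in KI-FL (0.096) and Atp2a2 in KI-571 (0.132). Without 3 libraries high in choroid plexus markers it turned in KI-571 for Ryr1 (0.055) and Atp2a2 (0.069). The Xist covariate turned Ryr2 (-0.068) and Atp2a2 (-0.045) in KI-96, and libraries low in Xist alone turned Itpr2 in KI-FL (-0.017) and Atp2a2 in KI-571 (0.012). Without a filter Itpr2 in KI-FL was -0.0027.

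Same-numbered mice were not treated as pairs in the main fit, and the labels do not say how replicates were taken. Of 24 pairs of same-numbered mice 5 had correlated deviations over 0.1 (range -0.128 to 0.29), and 5 of 16 mice correlated best with their own number. These correlations cannot exclude a shared sacrifice batch. With the replicate block 0 of the 10 genes were called in each of the 7 comparisons, and the sign turned for Itpr2 in KI-FL (-0.095), Itpr3 for KI-96, KI-571 and KI-FL (-0.118, -0.212 and -0.017), Ryr2 in KI-96 (-0.048) and Atp2a2 in KI-96 (-0.00235) and KI-FL (-0.041).

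Leaving out 1 mouse at a time gave, in KI-571, -0.034 to 0.32 for Itpr1, -0.136 to 0.107 for Itpr3, -0.195 to 0.086 for Ryr1, -0.069 to 0.134 for Ryr3, -0.099 to 0.014 for Atp2a2 and -0.016 to 0.128 for Stim1. It gave -0.101 to 0.262 for Itpr2 and -0.069 to 0.222 for Ryr2 in KI-96, and -0.027 to 0.073 for Itpr2 in KI-FL. The causes were not tested. The fit with WT replicates 1 to 4 alone holds fewer mice. The block keeps all mice, but WT replicates 5 to 7 have numbers found only in WT and do not inform its genotype differences. Counts of 74 to 215 per library limit Itpr3 and Atp2a3. Over all genes the calls in KI-FL ran from 0 to 509 (DESeq2) against 36. The sign of Ryr1 and Stim1 in KI-FL held in all 24 alternatives.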
